A study of Mus musculus with 8 samples.

Results

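The unfolded protein response (UPR) genes described here are 31 genes of endoplasmic reticulum (ER) stress signalling, ER folding and ER-associated degradation. They were chosen by name, with earlier results of these data known. Every probe set annotated to exactly 1 of these symbols was used. The mean of a gene's probe sets was its value on an array. All 31 were found, through 72 of 45037 probe sets and as 31 of 18193 genes. Tibia and femur of male mice, taken at the age of 12 days, gave the RNA, which was hybridised to 8 arrays, 4 for the Hyp genotype and 4 for wild type (WT). The Hyp genotype lacks the 3′ end of Phex, a membrane endopeptidase gene of osteoblasts and osteocytes, on a C57BL/6 background, and is a model of X-linked hypophosphatemia. For the WT mice the strain is given only as wild type, and both genotypes were on a standard diet. Each RNA was made from 2 bone samples of the same genotype, so an array stands for pooled bone and not for 1 cell type or 1 named animal. The comparison of Hyp with WT asks which genes differ in expression where Phex is deleted.

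The UPR is the program by which a cell adjusts the folding capacity of its ER to the load of secreted and membrane protein. It is started by sensors in the ER membrane. IRE1 (gene Ern1) is an RNase that splices Xbp1 messenger RNA so that it encodes an active transcription factor. ATF6 is itself a transcription factor that is cut free in the Golgi, and PERK (gene Eif2ak3) is a kinase that slows translation through eIF2alpha and favours ATF4, CHOP (gene Ddit3) and their targets. Osteoblasts and chondrocytes secrete large amounts of collagen and rely on these chaperones, and XBP1 and the related factor OASIS have known roles in bone formation. Arms share targets, so each gene was placed with the arm best known to drive it.

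In the deposited table each probe set has its own median at 0. The values show differences between arrays on the log2 scale and no level of expression, and where the groups do not overlap, the highest array of 1 group and the lowest of the other mirror each other around 0. The deleted gene was lower on all 4 Hyp arrays at both of its probe sets. Phex differed by -8.31 ± 0.21 (SE from limma, 4 arrays a genotype; adjusted p = 5.22e-08) at 1 of them and by -5.03 ± 0.20 (adjusted p = 2.15e-06) at the other. The position of either within Phex, inside or outside the deleted stretch, was not looked up. The first principal component (39.2% of the variance) separated the genotypes. WT replicate 3 stood apart on the second (22.6%), at -38.4 against -10.3 to 17.5 elsewhere.

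The promoter sequences below show the elements through which UPR factors are known to act, in members that fell and in members that did not pass the test. The windows run from 250 bases before to 50 bases after the RefSeq start site (GRCm38.p6). Of the 31 members 27 had at least 1, with 28 windows in all. Derl2 had more than 1, and Hyou1, Manf, Derl1 and Atf6 had none. Both strands were searched for exact matches, so elements with a differing base or outside the windows were not counted. The ER stress response element ERSE (CCAAT and CCACG with any 9 bases between them), bound by ATF6 and XBP1 together with NF-Y, was in the windows of 9 members, and in 39 of all 32851 windows (0.119%). ERSE-II (ATTGG and CCACG with any 1 base between them) was in those of 2 members and in 0.0365% of all windows. The core of the amino acid response element (TGATGCAA), bound by ATF4 with C/EBP partners, was in those of 3 members and in 0.895% of all. The UPRE core (TGACGTGG) was in no member window and in 0.676% of all. No match overlapped another. Each sequence is on the gene's strand, 5′ to 3′, with the motif in capitals and 10 flanking bases on each side in lower case.
Hspa5, ERSE, chr2:34772015-34772053, plus strand: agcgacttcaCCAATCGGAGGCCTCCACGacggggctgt
Dnajc3, ERSE, chr14:118937817-118937855, plus strand: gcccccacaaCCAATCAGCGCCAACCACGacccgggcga
Creld2, ERSE reversed, chr15:88819510-88819548, plus strand: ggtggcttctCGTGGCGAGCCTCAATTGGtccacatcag
Calr, ERSE reversed, chr8:84847065-84847103, minus strand: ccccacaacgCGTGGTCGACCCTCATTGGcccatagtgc
Canx, ERSE, chr11:50325790-50325828, minus strand: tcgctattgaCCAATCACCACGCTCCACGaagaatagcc
Herpud1, amino acid response element reversed and then ERSE-II, chr8:94386307-94386397, plus strand: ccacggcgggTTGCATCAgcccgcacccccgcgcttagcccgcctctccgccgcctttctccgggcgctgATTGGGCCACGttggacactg
Chac1, amino acid response element reversed, chr2:119351039-119351066, plus strand: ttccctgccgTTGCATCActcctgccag
Atf3, amino acid response element reversed, chr1:191183426-191183453, minus strand: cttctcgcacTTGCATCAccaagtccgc

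Of the 31 members 12 fell in Hyp bone (38.7%, against 6.32% of all genes) and 1 rose (3.23%, against 6.54%; 12.9% of all genes passed in either direction), by limma with an adjusted p under 0.05. The median difference of the members was -0.075, and that of all 18193 genes was 0.025. The list was not chosen blind to these data, so these shares are a description and not a test. The differences were small. The 12 decreases ran from 0.17 to 0.67 on the log2 scale, or changes from -10.8% to -37.0% in signal, and Chac1 alone exceeded 0.5. All 12 had 4 Hyp arrays below 4 WT arrays, as had 8.89% of all genes. The reverse order was seen in 2 members, Ppp1r15a and Calr, and in 10.3% of all genes. In whole bone, fewer cells of a type and less RNA per cell cannot be told apart. How many animals stand behind each RNA is not labelled. The p-values therefore rest on the spread among these RNA pools, which may be partly technical.

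**Figure D1:**
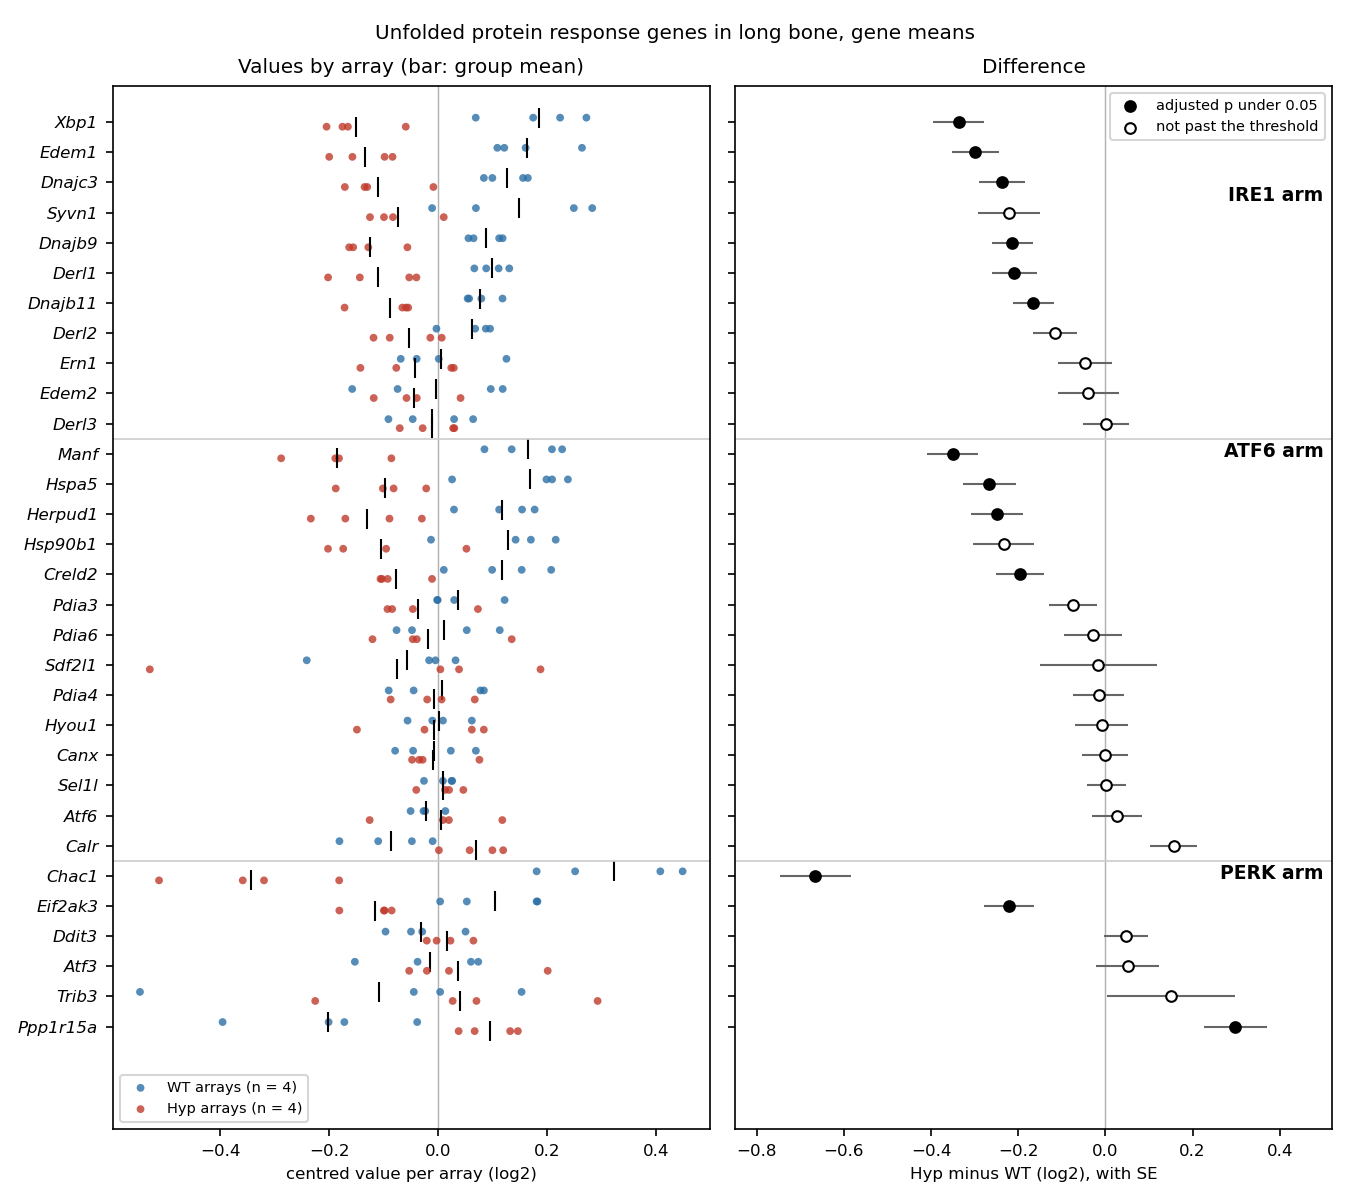
Left, the centred value (log2) of each of the 31 members on 4 WT arrays (blue) and 4 Hyp arrays (red), with group means as bars; right, the difference Hyp minus WT (log2) with its SE, filled where the limma adjusted p was under 0.05. Filled points lie left of 0 except for Ppp1r15a, and Chac1 lies farthest left at -0.67.

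Of the genes of the 3 sensors Eif2ak3 passed and Ern1 and Atf6 did not, and differences between them were not tested. Ern1 stood at 0.029, 0.025, -0.077 and -0.14 on Hyp replicates 1 to 4 and at 0.0015, 0.13, -0.039 and -0.068 on WT replicates 1 to 4. Atf6 stood at 0.0091, -0.13, 0.020 and 0.12 in Hyp and at -0.023, 0.014, -0.027 and -0.050 in WT. The groups overlapped for both, and the differences were -0.046 ± 0.061 (SE; limma adjusted p = 0.676) for Ern1 and 0.027 ± 0.057 (adjusted p = 0.807) for Atf6. Eif2ak3, which encodes PERK, stood at -0.099, -0.18, -0.085 and -0.098 in Hyp and at 0.18, 0.18, 0.0041 and 0.053 in WT, with every Hyp array below every WT array. It fell by 0.22 ± 0.057 (adjusted p = 0.0274). This call was lost without any 1 of the 4 Hyp arrays (adjusted p from 0.0513 to 0.0744), without WT replicate 1 (0.0892) and without WT replicate 2 (0.0698). Over 18 other settings its adjusted p ran from 0.000899 to 0.0892.

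Xbp1, the transcription factor of the IRE1 arm, fell by 0.34 ± 0.058 (SE; limma adjusted p = 0.00391), a change of -20.8% in signal. Its Hyp arrays stood at -0.18, -0.20, -0.17 and -0.059 and its WT arrays at 0.27, 0.0695, 0.18 and 0.22, so the groups lay apart. Its 4 probe sets all had a negative difference, from -0.45 to -0.21. The 3 that passed carry a suffix of the array design that marks probes shared between transcripts. The other, without such a suffix, lay at -0.21 ± 0.077 (adjusted p = 0.136). With that probe set alone as the gene's value the adjusted p was 0.0905, and over 18 other settings it ran from 0.00321 to 0.0905. The values are of Xbp1 transcript as a whole and do not separate spliced from unspliced messenger. Ddit3, which encodes the pro-apoptotic factor CHOP, stood at -0.021, 0.065, 0.023 and -0.0024 in Hyp and at -0.096, -0.0495, -0.029 and 0.051 in WT. Its groups overlapped, with a difference of 0.047 ± 0.050 (adjusted p = 0.585). Atf3, a stress-induced factor downstream of ATF4, had overlapping groups too and a difference of 0.051 ± 0.072 (adjusted p = 0.697).

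Among the Hsp70, Hsp90 and DnaJ chaperones, counted with the DnaJ partner Sdf2l1, 4 of 7 fell and none rose, with a median of -0.21. The shares of all genes were 6.32% and 6.54%. Hspa5 encodes BiP, the main Hsp70 of the ER, which also holds the sensors inactive. It stood at -0.022, -0.19, -0.10 and -0.081 in Hyp and at 0.24, 0.20, 0.026 and 0.21 in WT. The groups lay apart, with WT replicate 3 the lowest of its group, and Hspa5 fell by 0.27 ± 0.061 (SE; limma adjusted p = 0.0173). Without WT replicate 1 its adjusted p was 0.0595 and without WT replicate 4 it was 0.0512, in a range from 0.00478 to 0.0595 over 17 other settings. Every probe set of Hspa5 carries a shared-probe suffix, so the setting without such probe sets gave no value for it. Among its DnaJ partners in the list, Dnajc3, Dnajb9 and Dnajb11 passed. Dnajc3 (P58IPK) stood at -0.13, -0.17, -0.13 and -0.0083 in Hyp and at 0.17, 0.084, 0.10 and 0.16 in WT, and fell by 0.24 ± 0.052 (adjusted p = 0.0135). Dnajb9 (ERdj4), which restrains IRE1, stood at -0.16, -0.13, -0.056 and -0.16 in Hyp and at 0.12, 0.056, 0.11 and 0.066 in WT, and fell by 0.21 ± 0.047 (adjusted p = 0.0143).

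These last decreases passed without any single array. The adjusted p of Dnajc3 was 0.0622 from the single probe set that varied most (over 18 other settings, from 0.010 to 0.0622), and that of Dnajb9 was 0.0515 without WT replicate 3 and Hyp replicate 2 together (from 0.0102 to 0.0515). Dnajb11 (ERdj3), a BiP partner that binds unfolded clients, stood at -0.065, -0.055, -0.17 and -0.059 in Hyp and at 0.080, 0.055, 0.057 and 0.12 in WT. It fell by 0.17 ± 0.048 (adjusted p = 0.0475), with Hyp replicate 3 well below the others. That call was lost without any of the 8 arrays in turn (adjusted p from 0.0556 to 0.118), and 18 other settings gave 0.0313 to 0.118. Hsp90b1 (GRP94), the Hsp90 of the ER, did not pass at -0.23 ± 0.071 (adjusted p = 0.055), with Hyp replicate 4 at 0.052 and WT replicate 3 at -0.013 inside the other group's range. Without Hyp replicate 4 its adjusted p was 0.027 and without WT replicate 3 it was 0.0225, in a range from 0.0225 to 0.164 over 17 other settings. Hyou1 (GRP170), the exchange factor of BiP, lay at -0.0081 ± 0.061 (adjusted p = 0.949). Sdf2l1, a partner of Dnajb11, lay at -0.017 ± 0.13 (adjusted p = 0.952), and its Hyp arrays ran from -0.53 in replicate 3 to 0.19 in replicate 1.

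The lectin chaperones and the disulfide isomerases mostly did not pass. Calr (calreticulin), which holds glycoproteins for folding, stood at 0.12, 0.10, 0.0018 and 0.058 in Hyp and at -0.048, -0.11, -0.0097 and -0.18 in WT. Its groups did not overlap, and its difference was 0.16 ± 0.054 (SE; limma adjusted p = 0.0863; 0.0462 to 0.202 over 17 other settings), opposite in sign to that of Hspa5. Canx (calnexin), its membrane-bound relative, lay at -0.0007 ± 0.053 (adjusted p = 0.995). Pdia3 (ERp57), which works with both lectins, lay at -0.075 ± 0.055 (adjusted p = 0.423). Pdia4 (ERp72) and Pdia6 (P5) lay at -0.015 ± 0.059 and -0.028 ± 0.067 (adjusted p = 0.899 and 0.831). Creld2, a small isomerase-like protein induced by ER stress, was the member of this class that fell, by 0.20 ± 0.055 (adjusted p = 0.0416). It stood at -0.10, -0.011, -0.092 and -0.11 in Hyp and at 0.15, 0.011, 0.21 and 0.0996 in WT. The call was lost without each of 6 arrays, Hyp replicates 1, 3 and 4 and WT replicates 1, 3 and 4 (adjusted p from 0.0754 to 0.116), and 18 other settings gave 0.0264 to 0.116.

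Manf, a secreted factor of ER stress that binds BiP, showed the clearest decrease after Chac1. Its Hyp arrays stood at -0.19, -0.29, -0.18 and -0.086 and its WT arrays at 0.21, 0.086, 0.23 and 0.14. It fell by 0.35 ± 0.058 (SE; limma adjusted p = 0.00293), a change of -21.6%, and passed under each of 18 other settings (adjusted p from 0.00181 to 0.0164).

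Of the 8 ER-associated degradation (ERAD) genes, which bring misfolded protein back to the cytosol, 3 fell and none rose (median -0.16). The shares of all genes were 6.32% and 6.54%. Edem1, which marks trimmed glycoproteins for degradation, stood at -0.083, -0.098, -0.20 and -0.16 in Hyp and at 0.26, 0.11, 0.16 and 0.12 in WT. It fell by 0.30 ± 0.054 (SE; limma adjusted p = 0.0048) and passed under each of 18 other settings (from 0.00269 to 0.0177). Its relative Edem2, needed for the first mannose cut, lay at -0.039 ± 0.070 (adjusted p = 0.768). Herpud1 (HERP), a scaffold of the ubiquitin ligase complex, stood at -0.23, -0.089, -0.17 and -0.0295 in Hyp and at 0.18, 0.0295, 0.11 and 0.15 in WT. It fell by 0.25 ± 0.059 (adjusted p = 0.0202), with neither of its 2 probe sets past the threshold among all probe sets. With the probe set without a shared-probe suffix alone as the gene's value it passed among genes, at -0.23 (adjusted p = 0.0477). Its adjusted p lay between 0.0556 and 0.067 when Hyp replicate 1 or 3, or WT replicate 1 or 4, was left out.

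Of the derlins, channel proteins of the same complex, Derl1 passed and Derl2 and Derl3 did not, and differences between them were not tested. Derl1 stood at -0.20, -0.14, -0.053 and -0.0395 in Hyp and at 0.089, 0.067, 0.11 and 0.13 in WT and fell by 0.21 ± 0.052 (SE; limma adjusted p = 0.0245). That call was lost when Hyp replicate 1 or 2, or WT replicate 1 or 4, was left out (adjusted p from 0.0625 to 0.0692) and without WT replicate 3 and Hyp replicate 2 together (0.0849). Derl2 lay at -0.12 ± 0.050 (adjusted p = 0.166) and Derl3 at 0.0007 ± 0.053 (adjusted p = 0.995). Syvn1 (HRD1), the ligase itself, lay at -0.22 ± 0.071 (adjusted p = 0.0685), a size like that of Derl1 with a wider spread, and WT replicate 4 at -0.011 fell within the Hyp range. Without that array its adjusted p was 0.0345. Sel1l, the cofactor that holds the ligase complex together, lay at 0.0015 ± 0.045 (adjusted p = 0.988).

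Among the remaining genes of the PERK arm Chac1 fell, Ppp1r15a rose and Trib3 did not pass. Chac1, which breaks down glutathione and is a target of ATF4 and CHOP, stood at -0.51, -0.32, -0.18 and -0.36 in Hyp and at 0.41, 0.18, 0.25 and 0.45 in WT. It fell by 0.67 ± 0.082 (SE; limma adjusted p = 0.000502), a change of -37.0%, the largest difference among the members. It passed under each of 18 other settings (adjusted p from 0.000111 to 0.0036). Ppp1r15a (GADD34), the phosphatase subunit that reverses the block of translation, stood at 0.038, 0.0675, 0.13 and 0.15 in Hyp and at -0.40, -0.20, -0.038 and -0.17 in WT. Its groups lay apart, and it rose by 0.30 ± 0.072 (adjusted p = 0.0224), a change of 22.9%. Without Hyp replicate 3 its adjusted p was 0.0591 and without Hyp replicate 4 it was 0.0584, in a range from 0.00676 to 0.0591 over 18 other settings. Trib3, a pseudokinase induced by CHOP, lay at 0.15 ± 0.15 (adjusted p = 0.553), and its WT arrays alone ran from -0.55 to 0.15.

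Set out by arm, 6 of the 11 IRE1 genes fell (median -0.21) and 4 of the 14 ATF6 genes fell (median -0.023). Of the 6 PERK genes 2 fell and 1 rose (median 0.049). Over all genes 6.32% fell and 6.54% rose. The mean over the IRE1 genes lay between -0.094 and -0.071 on the Hyp arrays and between 0.066 and 0.12 on the WT arrays, without overlap. For the ATF6 genes these ranges were -0.10 to -0.0007 and 0.014 to 0.064, also without overlap. Those of the PERK genes, -0.13 to 0.027 and -0.081 to 0.099, overlapped. The mean over all members (-0.074 to -0.042 and 0.041 to 0.067) did not overlap. Nor did the mean over all genes (0.0011 to 0.012 and -0.017 to -0.0039). Differences between the arms were not tested. Leaving out arrays in turn moved the ATF6 median from -0.067 (without WT replicate 3) to -0.016 (without WT replicate 4), and with the probe set of the largest SD for each gene it was -0.12. With the genes of lowest SD left out it was -0.21. Both SDs were taken over all 8 arrays, so these choices favour probe sets and genes that differ between the genotypes. The number of members that fell was 7 without Hyp replicate 1, 6 without WT replicate 1 and between 8 and 11 without any other array. Of all 18193 genes 854, 805 and between 877 and 1153 fell in these fits, against 1150 with all arrays. Without Hyp replicate 3 or Hyp replicate 4 no member rose by limma, where Ppp1r15a had an adjusted p of 0.0591 and 0.0584. In these fits 795 and 897 of all genes rose. Among the 12 that fell, 6 passed without each of the 8 arrays in turn: Xbp1, Dnajb9, Dnajc3, Edem1, Manf and Chac1.

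Matches stood in members that fell and in members that did not pass. Of all 27 members with a window, with or without a match, 10 fell, and no link between motif and decrease was tested. Of the 9 members with an ERSE, 3 fell (Hspa5, Dnajc3 and Creld2) and 6 did not pass (Hsp90b1, Syvn1, Calr, Canx, Derl3 and Pdia6). Both members with an ERSE-II fell: Herpud1, whose sequence is printed above, and Dnajb11, in which the match lies 8 to 18 bases after the start site. Of the 3 members with the amino acid response element, Chac1 and Herpud1 fell and Atf3 did not pass. Of the 12 members that fell 10 had a window, and 4 of those held no exact match: Xbp1, Dnajb9, Edem1 and Eif2ak3. Ppp1r15a, the member that rose, held none either.

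**Figure D2:**
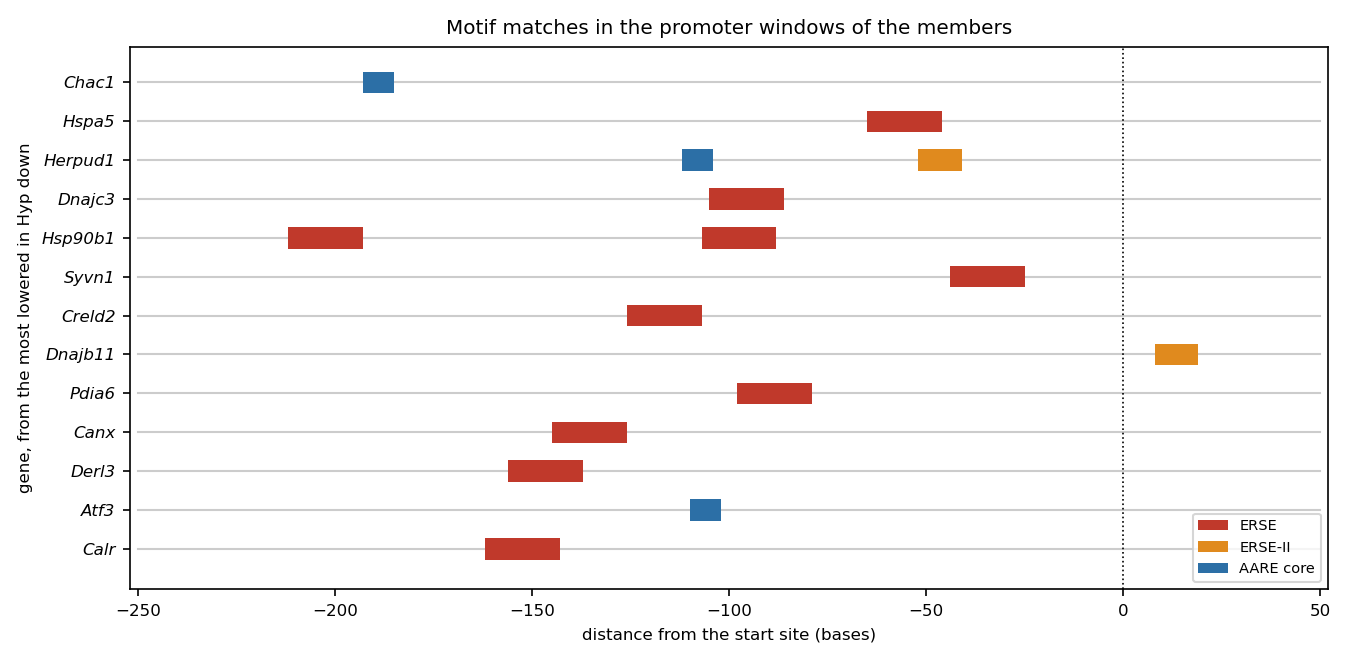
Matches of ERSE (red), ERSE-II (orange) and the amino acid response element core (AARE core, blue) in the windows of the 13 members that held any, by distance in bases from the start site (dotted line), with genes in order of their difference from the lowest (Chac1) to the highest (Calr). ERSE matches stand at genes from -0.27 (Hspa5) to 0.16 (Calr), and that of Hspa5 lies at -65 to -47 bases.

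Single probe sets gave fewer calls than gene means. Of the 72 member probe sets 10 fell and 1 rose. Over all 45037 probe sets 3.91% fell and 3.22% rose, and 7.13% passed in either direction. The rise, of Ppp1r15a, passed in 1 of the 8 fits that left out an array, the fit without WT replicate 3. Of the 12 members that fell, 8 had a probe set that passed alone. For the 7 of them with more than 1 probe set every probe set was negative. Eif2ak3 rested mostly on 1 of its 3 probe sets, at -0.44 ± 0.065 (SE; limma adjusted p = 0.00246), with the others at -0.098 ± 0.10 and -0.12 ± 0.11. Hspa5 was likewise uneven, with -0.46 ± 0.11 (adjusted p = 0.0296), -0.23 ± 0.071 (0.0845) and -0.11 ± 0.055 (0.288), all from probe sets with a shared-probe suffix. So was Edem1, with -0.43 ± 0.063 (adjusted p = 0.00257) and -0.17 ± 0.065. Of the 22 members with more than 1 probe set, 9 had probe sets of both signs. Pdia4 had 1 at -0.20 ± 0.077 and 1 at 0.17 ± 0.064 (adjusted p = 0.15 and 0.143), and Canx ran from -0.16 ± 0.070 to 0.15 ± 0.061, so their gene means near 0 average opposite values.

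**Figure D3:**
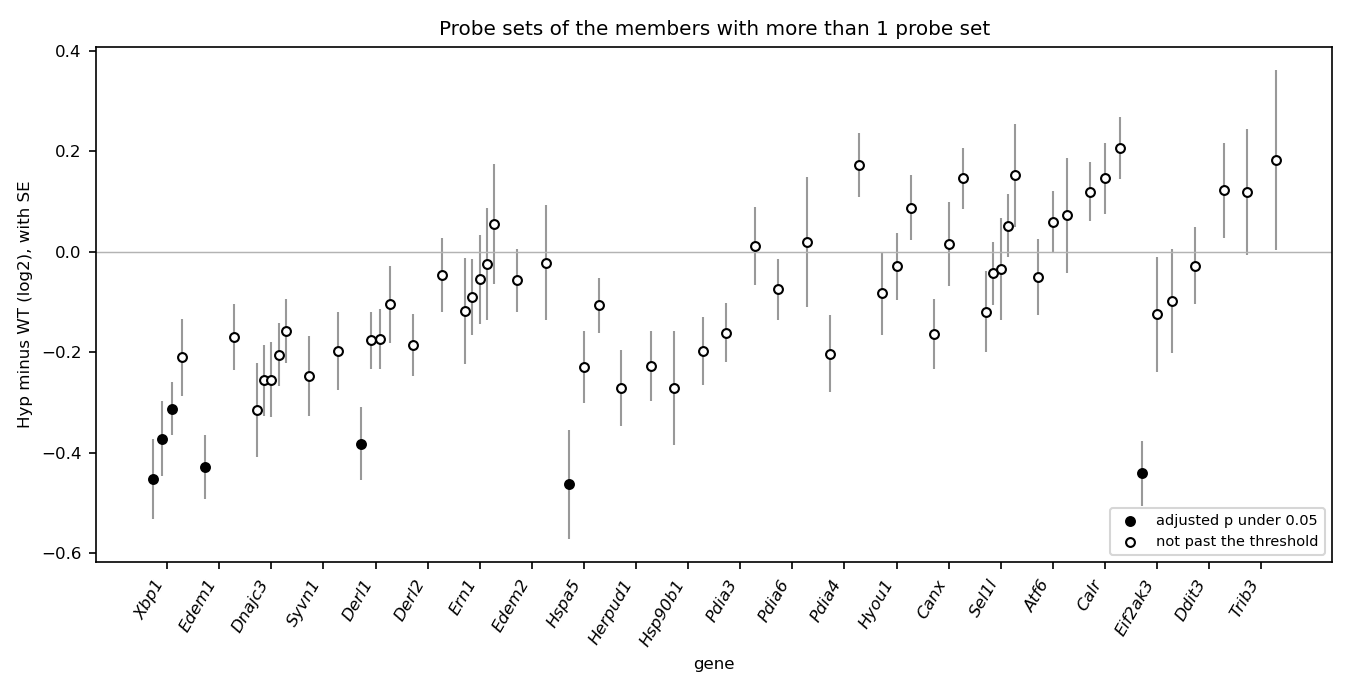
Difference Hyp minus WT (log2) with its SE for each probe set of the 22 members with more than 1, filled where the limma adjusted p was under 0.05. The probe sets of Xbp1 run from -0.45 to -0.21, and those of Pdia4 and Canx lie on both sides of 0.

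Further genes, of the secretory pathway and of stress signalling, were grouped by function in 5 lists. These lists too were chosen with earlier results of these data known. Of 99 measured, 35 fell (35.4%, against 6.32% of all genes). None rose by limma at the gene level, and 3 of the 99 had a positive difference with an unadjusted p under 0.05. Of 20 genes for translocation into the ER and signal peptide cleavage, 13 fell (median -0.23). Sec61b, a subunit of the translocation channel, fell by 0.45 ± 0.043 (SE; limma adjusted p = 0.000123). Ssr2 and Ssr3, of the translocon-associated complex, fell by 0.39 ± 0.046 and 0.44 ± 0.053, and Srprb, of the signal recognition particle receptor, by 0.46 ± 0.057. Of 27 other folding enzymes and chaperones 10 fell (median -0.15). The disulfide isomerases Pdia5 and Txndc5 fell by 0.57 ± 0.057 and 0.42 ± 0.044, Fkbp7, a prolyl isomerase, by 0.52 ± 0.054, and Prdx4, the ER peroxiredoxin, by 0.46 ± 0.059.

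Of 19 other ERAD genes 4 fell (median -0.083), against 6.32% of all genes. Selenos, a membrane selenoprotein that recruits the extraction ATPase, fell by 0.58 ± 0.082 (SE; limma adjusted p = 0.00114), and Fam8a1, a cofactor of the ligase, by 0.37 ± 0.054. Erlec1, an ER lectin, and Edem3 fell by 0.29 ± 0.062 and 0.32 ± 0.088. Of 16 relatives and regulators of the sensors 4 fell (median -0.056). Creb3l1, which encodes OASIS, an ATF6-like factor of osteoblasts that acts on type I collagen, stood at -0.46, -0.78, -0.32 and -0.39 in Hyp and at 0.49, 0.32, 0.42 and 0.43 in WT. It fell by 0.91 ± 0.092 (adjusted p = 0.000162), more than any member. Its relatives Creb3 and Creb3l3 fell by 0.31 ± 0.046 and 0.44 ± 0.083, and Mbtps2, the site-2 protease that releases ATF6, by 0.22 ± 0.052.

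Of 17 genes of the integrated stress response, the branch that PERK shares with other eIF2alpha kinases, 4 fell (median -0.023). The share of all genes was 6.32%. Nupr1, a stress-induced nuclear protein, fell by 1.04 ± 0.13 (SE; limma adjusted p = 0.000485). Stc2 (stanniocalcin 2), Vldlr, a lipoprotein receptor, and Psat1, of serine synthesis, fell by 0.61 ± 0.073, 0.42 ± 0.076 and 0.41 ± 0.059. Atf4, the factor at the head of this branch, named after its values were seen, did not pass at -0.15 ± 0.048 (adjusted p = 0.0679).

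**Figure D4:**
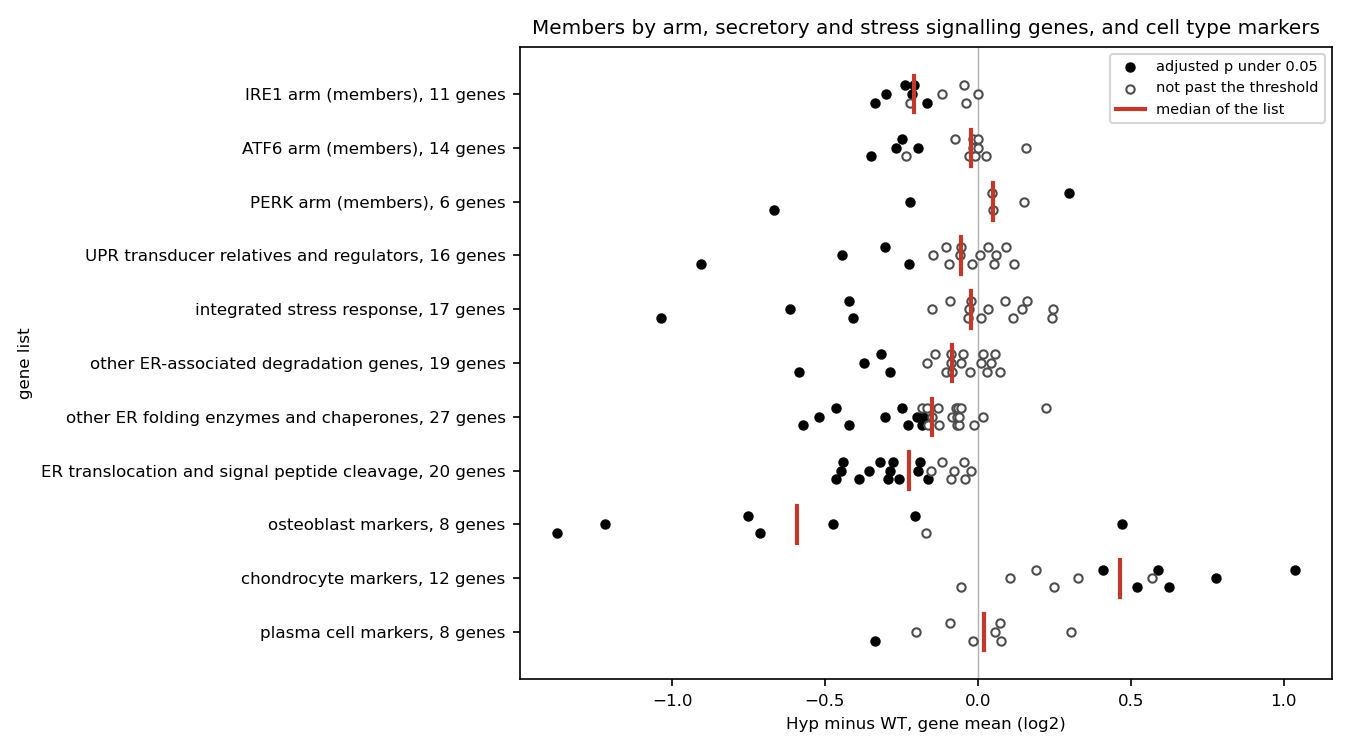
Difference Hyp minus WT of each gene (gene mean, log2) in the 3 arms, in 5 lists of secretory pathway and stress signalling genes and in 3 lists of cell type markers, filled where the limma adjusted p was under 0.05, with list medians as red bars. The translocation list lies wholly left of 0 (median -0.23), the osteoblast list has its median at -0.59 and the chondrocyte list at 0.47.

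Markers of osteoblasts and chondrocytes moved with genotype too, where 6.32% of all genes fell and 6.54% rose. Of 8 measured osteoblast markers 6 fell and 1 rose (median -0.59). Their mean lay between -0.37 and -0.14 on the Hyp arrays and between 0.19 and 0.35 on the WT arrays. The 2 type I collagen genes differed in sign. Col1a1 was the marker that rose, by 0.47 ± 0.12 (SE; limma adjusted p = 0.026), and Col1a2 fell by 0.47 ± 0.080 (adjusted p = 0.0033). Of 12 chondrocyte markers 6 rose (median 0.47), with means from -0.0019 to 0.38 in Hyp and from -0.40 to -0.048 in WT. Of 8 plasma cell markers Xbp1 fell, itself a member, and no other passed (median 0.020). Their means overlapped, from -0.13 to 0.15 in Hyp and from -0.11 to 0.14 in WT.

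Marker lists of macrophages, of mast cells and eosinophils, of erythroid cells and of endothelium were higher in Hyp bone. Of 10 macrophage markers 8 rose, of 10 mast cell and eosinophil markers 8, of 8 erythroid markers 6 and of 10 endothelial markers all 10. Of all genes 6.54% rose and 6.32% fell. Among 10 neutrophil markers 1 rose, near the share of all genes, and among 9 B lineage markers 3 fell. The macrophage mean lay between 0.25 and 0.42 in Hyp and between -0.38 and -0.26 in WT, and the endothelial mean between 0.13 and 0.26 and between -0.35 and -0.18. Skeletal muscle markers, none of 10 past the threshold by limma at the gene level (0 with an unadjusted p under 0.05), had means from -1.37 on Hyp replicate 2 to 1.85 on WT replicate 3. With the muscle mean as a covariate 9 members fell and 1 rose, against 1033 and 1083 of all 18193 genes. The part of the other cell types in the differences of the UPR genes was not tested, and with centred values no marker can be said to be absent.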

How the data were processed

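RNA from 8 pools of mouse long bone (4 Hyp, 4 WT) was biotin-labelled and hybridised to 1-colour arrays, 1 per pool. The deposited log2 values are RMA summaries, per the submitters' processing notes. The RMA version is not given in the sources used here. Each probe set had a median of 0 over the 8 arrays (within 5e-07), a centring that no label records. The log base was taken as 2, since probe sets spanned up to 8.92 units, more than the 4.8 that a 16-bit scanner covers in log10.

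Of 45101 probe sets 64 controls were left out. Platform annotation, updated through RefSeq identifiers (GRCm38.p6, names only), gave 1 symbol for 34945, several for 932 and none for 9160. Differences (Hyp minus WT) were fitted over all genes, and separately over all probe sets, by lmFit and eBayes of limma (version 3.58.1, under R 4.3.3), two-sided, with Benjamini-Hochberg adjustment and a threshold of 0.05. SE is from that fit. For arrays, their number limits the precision: the median SE over members was 0.058. The fits and the motif search were tested on simulated data. Array titles repeat the numbers 1 to 4 in both genotypes.

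The members, the arms and the other gene lists were chosen with earlier results of these data known. Members are all named. From each pathway list up to 4 genes with the smallest p among those that passed are named. Atf4, Phex, Col1a1 and Col1a2 were added to these. Alternatives were a replicate block, further normalization, array weights, a robust prior, the muscle mean as a covariate, other thresholds, other probe set choices, a filter on the SD, and leaving out arrays. Of 106 listed pathway genes 99 were measured under a single symbol.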

Additional observations from a re-analysis of the deposited data

Results flagged for a closer look

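In 4 of 70 groups of 4 arrays examined (each of the 31 members, the mean of each arm and the mean of all members, in each genotype) a single array lay apart from the others by Dixon's test. Chance flags about 1 in 20 groups. Dnajb11 stood at -0.17 on Hyp replicate 3, with the other Hyp arrays between -0.065 and -0.055. Canx stood at 0.076 on Hyp replicate 4, with the others between -0.048 and -0.028. Creld2 stood at -0.011 on Hyp replicate 2, with the others between -0.11 and -0.092. Eif2ak3 stood at -0.18 on Hyp replicate 2, with the others between -0.099 and -0.085.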

How the results depend on the processing

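None of the 13 members that passed changed direction under any alternative tried. At an adjusted p under 0.01, 4 members fell and 0 rose, against 618 and 407 of all 18193 genes. At 0.1, 2 members rose, against 1891 of all genes, and with array weights 2, against 1511. With 1 array left out, 6 to 11 members fell and 0 to 1 rose. Over all genes 805 to 1153 fell and 605 to 1437 rose in those fits. Of the member probe sets, 6 fell and 0 rose at 0.01, and 20 fell and 2 rose at 0.1. Array weights gave 2 probe sets that rose, while quantile normalization, median centring and the SD filter gave 0 each, and leaving out arrays gave 0 to 1. Calls over all probe sets were not counted at these settings. Of the other pathway genes 23 fell at 0.01, and leaving out arrays gave 0 to 1 that rose. With the replicate block, with the muscle covariate, at 0.1 and without WT replicate 3 and Hyp replicate 2 together 1 rose. Over all genes 1015, 1083, 1891 and 1096 rose under these settings. The ATF6 median was -0.12 with the probe set of the largest SD and -0.21 with the SD filter, which kept 22 of 31 members. Both choices use the SD over the arrays of both genotypes, which favours probe sets and genes that differ between them. With arrays left out the ATF6 median ran from -0.067 to -0.016. The IRE1 median ran from -0.22 to -0.18. The causes were not tested.

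The titles repeat replicate numbers 1 to 4, but deviations of same-numbered samples correlated at 0.145, -0.044, 0.262 and 0.179, and 5 of 8 samples correlated best with their own number, a hint of pairing from the data and not from the design. Pairing was accepted only where every correlation exceeded 0.1, which 1 of 4 did not. With the replicate block 10 members fell and 1 rose, against 1063 and 1015 of all 18193 genes. Dnajb11 (adjusted p = 0.0802), Creld2 (0.0859) and Eif2ak3 (0.0615) were lost and Hsp90b1 (0.0367) was gained. Values are centred, so signal over background, and whether a probe set was detected, could not be read.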
